A study of Mus musculus with 24 samples.

Results

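Sox9, the R-spondin receptors Lgr4 and Lgr6 and 5 further genes, mostly of Wnt signalling, were followed in mpkCCD cells, mouse kidney epithelial cells that stem from the cortical collecting duct and grow as an immortalised line. The genes were chosen by name, as a list of 8: Sox9, Sox4, Lgr4, Lgr6, Axin2, Rnf43, Tcf7l2 and Ctnnb1. Of these, 6 had a row of their own name among the 12224 rows of the table, and Sox4 and Axin2 were not analysed here. The 5 genes Sox9, Lgr4, Lgr6, Tcf7l2 and Ctnnb1 passed the filter on low values, which kept 11557 rows, and Rnf43 lay below it.

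The 24 poly(A) libraries formed 4 groups of 6. They were Gpr39 knockout (KO) cells with the agonist cpd1324 (KO agonist), KO cells with vehicle (KO vehicle), WT cells with cpd1324 (WT agonist) and WT cells with vehicle (WT vehicle). GPR39 is a G-protein-coupled receptor that senses zinc, and cpd1324 is an agonist of it. Agonist groups received 1 µM cpd1324 and vehicle groups 0.1% DMSO for 2 h, on the basolateral side, and all 4 groups received 10 µM ZnCl2 at the same time. All had grown for 9 days on permeable inserts without dDAVP, a vasopressin analogue, followed by 24 h in simple medium. The labels give neither the number of KO clones, nor the edited part of Gpr39, nor whether replicates were separate cultures, so p-values measure the spread between these samples alone.

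Wnt ligands bind Frizzled receptors and LRP co-receptors at the cell surface, which keeps beta-catenin from being degraded and lets it act with TCF/LEF factors in the nucleus. R-spondins, read by the receptors LGR4, LGR5 and LGR6, strengthen this signal by clearing RNF43 and ZNRF3, the ubiquitin ligases that remove Frizzled from the membrane. In the kidney, Wnt signals and the transcription factor SOX9 act in the growing collecting duct, and SOX9 returns in tubule cells after injury.

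Levels are given in scaled units, the deposited signal per gene length multiplied by a constant, so that levels of different genes can be compared. The libraries held 29.8 to 51.9 M recovered reads. Gpr39 averaged 9.40 ± 0.882 scaled units in KO agonist, 9.37 ± 0.645 in KO vehicle, 29.2 ± 1.33 in WT agonist and 21.6 ± 1.61 in WT vehicle cells (SD, n = 6 each), so Gpr39 RNA was lower in KO cells and still present. Of 12 principal cell markers, 10 were in the table, with sums of 851 to 1195 scaled units in KO agonist, 1073 to 1219 in KO vehicle, 650 to 814 in WT agonist and 774 to 981 in WT vehicle cells. Aqp2, the defining one, averaged 66.4 ± 15.1 in KO agonist, 87.3 ± 18.0 in KO vehicle, 11.7 ± 1.74 in WT agonist and 17.7 ± 4.94 in WT vehicle cells. Of other cell types, the table held 4 of 9 intercalated cell markers, 3 of 8 of the thick limb and distal tubule, 2 of 8 of endothelial and immune cells, 1 of 9 of the proximal tubule (Lrp2) and 1 of 7 of fibroblasts (Col1a1). Lrp2 was at 4.66 to 8.91 in KO agonist, 4.49 to 6.77 in KO vehicle, 11.1 to 16.4 in WT agonist and 8.06 to 10.6 in WT vehicle cells, and Col1a1 at 3.27 or less in every library. In KO agonist, KO vehicle, WT agonist and WT vehicle cells, intercalated cell markers had mean sums of 79.2, 94.3, 78.5 and 84.7. In the same order, the mean sums for the thick limb and distal tubule were 8.64, 10.45, 3.26 and 4.085. Those for endothelial and immune cells were 54.5, 55.5, 72.1 and 63.5. The part of these markers in the results was not tested. Library 6 of KO vehicle stood apart, with a root mean square log2 distance of 0.396 from its group's median profile, against 0.136 to 0.216 for the other 23 libraries. In bulk RNA, fewer cells of a type and less RNA per cell cannot be told apart.

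**Figure D1:**
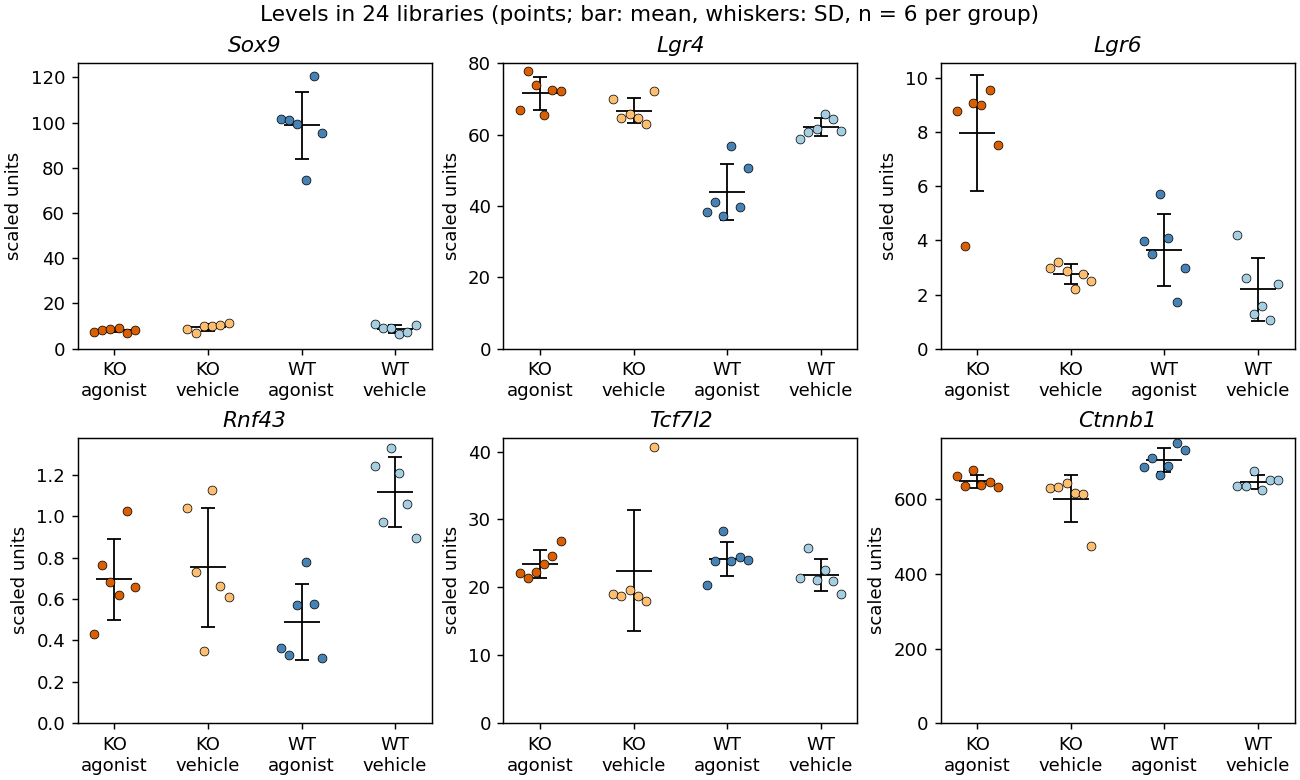
Level of each of the 6 measured genes (scaled units, linear axis from 0) in every library of the 4 groups, with the mean and SD of 6 libraries. Sox9 stood at 74.4 to 120.6 in WT agonist cells and at no more than 11.4 in the other 3 groups, whereas Lgr6 was highest in KO agonist cells.

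Sox9, an HMG-box transcription factor (row on chromosome 11), was high in 1 group alone. Its lowest, median and highest levels were 6.80, 8.22 and 8.95 scaled units in KO agonist cells and 6.83, 9.84 and 11.4 in KO vehicle cells. The same 3 values were 74.4, 100.3 and 120.6 in WT agonist cells and 6.36, 8.91 and 10.9 in WT vehicle cells. All 6 WT agonist libraries thus lay above every other library, and the other 3 groups overlapped. Between WT agonist and WT vehicle, 37.5% of all rows had no overlap. The ratio of means, WT agonist over WT vehicle, was 11.2, and the log2 fold change was 3.43 ± 0.12 (SE), the 29th highest of 11557 rows. In KO cells the agonist over vehicle log2 fold change was -0.21 ± 0.12. The agonist effect in WT cells minus that in KO cells, which runs WT minus KO, was 3.64 ± 0.17. Sox9 read counts were 2104 to 3984 per library in WT agonist cells and 205 to 443 elsewhere. The SD among WT agonist libraries, 14.8, was above the 1.78 that read counting alone would give.

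The 8 genes were selected on names put forward with earlier results of the agonist contrasts in view, among them the fold changes of Sox9 in WT cells and of Lgr6 in KO cells. Their agonist fold changes, the difference between these, and the KO against WT difference with agonist are therefore descriptions without a test. Of the 5 genes, 4 passed an adjusted p of 0.05 in the WT agonist contrast, where 57.2% of all rows did. In the KO agonist contrast 1 of 5 passed, against 9.30% of rows. In the difference of the effects 2 of 5 passed, against 41.1%, and with agonist in KO against WT cells 3 of 5, against 64.1%. Without overlap between groups, Lgr6 was higher with agonist in KO cells, where 4.53% of rows had none, and Sox9 lower and Lgr4 higher in KO than WT cells with agonist, where 46.3% had none. Leaving out 1 library changed some of them: without KO vehicle library 6, Tcf7l2 passed too in the KO agonist contrast, and without KO agonist library 2, Lgr6 passed too in the difference. In the WT agonist contrast Ctnnb1 passed narrowly (limma adjusted p = 0.0487) and lost its call without most single WT libraries. It reached 0.105 without WT agonist library 5, 0.0521 with median ratio scaling and 0.0585 with the replicate block. Nothing is read from these counts. Both genotypes' effects rest on their own vehicle libraries, and the KO against WT comparisons reuse the same libraries.

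The genes whose centred log2 profile over the 24 libraries lay nearest to that of Sox9, among 10291 genes, were Ifrd1, Ptger4, Noct, Phlda1 and Maff. The root mean square difference was 0.218 for Ifrd1 and 0.288 for Maff, against 1.50 for the spread of Sox9 about its own mean. Ptger4, a prostaglandin E2 receptor, averaged 25.3 ± 3.72 scaled units in KO agonist, 28.1 ± 4.05 in KO vehicle, 261 ± 32.2 in WT agonist and 28.8 ± 5.28 in WT vehicle cells. Maff, a small MAF transcription factor, averaged 55.1 ± 7.31 in KO agonist, 61.5 ± 11.7 in KO vehicle, 513 ± 74.0 in WT agonist and 64.0 ± 8.39 in WT vehicle cells. Each of the 5 had its highest mean in WT agonist cells, as Sox9 did, which is no separate result because they were picked for nearness. Of the other SOX genes listed, Sox6 and Sox13 were in the table and Sox13 alone was tested. Sox13 averaged 34.4 ± 2.52 scaled units in KO agonist, 34.7 ± 2.06 in KO vehicle, 34.1 ± 4.48 in WT agonist and 32.2 ± 1.97 in WT vehicle cells, and with the library factors as deposited it was called in 0 of the 5 contrasts.

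**Figure D2:**
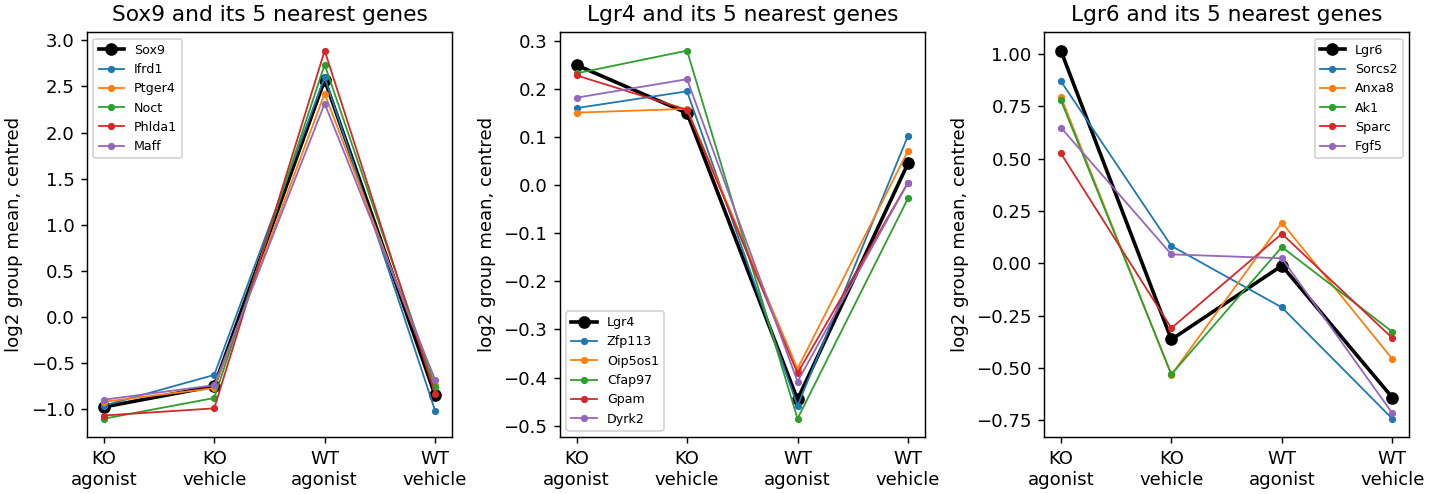
Group means of Sox9, Lgr4 and Lgr6 (black) and of the 5 genes nearest to each (colours), as log2(scaled units + 0.5) centred on the mean of the 4 groups. Sox9 and its 5 nearest genes peaked in WT agonist cells, Lgr4 and its 5 were lowest there, and Lgr6 and its 5 were highest in KO agonist cells. The coloured genes were picked for nearness, so the shared shapes are no separate result.

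Lgr4, a receptor for R-spondins (row on chromosome 2), was lowest in WT agonist cells, where Sox9 was highest. Its lowest, median and highest levels were 65.7, 72.5 and 78.0 scaled units in KO agonist cells and 63.1, 65.3 and 72.3 in KO vehicle cells. They were 37.3, 40.5 and 56.9 in WT agonist cells and 58.7, 61.4 and 65.7 in WT vehicle cells. Every WT agonist library lay below every library of the other 3 groups. Between WT agonist and WT vehicle, 37.5% of all rows had no overlap, in one direction or the other. The log2 fold change, agonist over vehicle, was 0.10 ± 0.08 in KO cells and -0.51 ± 0.08 in WT cells, and the difference, WT minus KO, was -0.61 ± 0.11. With agonist, KO minus WT was 0.71 on the log2 scale. WT agonist library 4 had the highest Lgr4 level of its group, 56.9, and the lowest Sox9 level, 74.4. Library 6 of that group had 50.6 for Lgr4 and 95.5 for Sox9. Library 3 had the lowest Lgr4 level, 37.3, with Sox9 at 99.3. Library 5 had the highest Sox9 level, 120.6, with Lgr4 at 39.7. A relation between Sox9 and Lgr4 within the group was not tested. Of the nearest genes to Lgr4, Zfp113 averaged 13.8 ± 0.755 scaled units in KO agonist, 14.2 ± 1.15 in KO vehicle, 8.82 ± 1.01 in WT agonist and 13.3 ± 0.848 in WT vehicle cells, at a root mean square difference of 0.113, and the others were Oip5os1, Cfap97, Gpam and Dyrk2.

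Lgr6, the other measured R-spondin receptor (row on chromosome 1), was far less abundant than Lgr4 and highest in KO agonist cells. Its lowest, median and highest levels were 3.81, 8.90 and 9.56 scaled units in KO agonist cells and 2.22, 2.81 and 3.22 in KO vehicle cells. They were 1.71, 3.73 and 5.74 in WT agonist cells and 1.07, 1.98 and 4.20 in WT vehicle cells. All 6 KO agonist libraries lay above all KO vehicle libraries, while the 2 WT groups overlapped. The log2 fold change, agonist over vehicle, was 1.33 ± 0.24 in KO cells, the highest of the 11557 rows, and 0.67 ± 0.24 in WT cells. The difference, WT minus KO, was -0.67 ± 0.34. With agonist, KO minus WT was 1.04. KO agonist library 2 was the low one at 3.81, and without it the KO agonist mean was 8.80 ± 0.755 (SD, n = 5), against 7.97 ± 2.15 with it (SD, n = 6). Without that library the difference, WT minus KO, was -0.85. In WT cells the log2 value without 1 library ranged between 0.53, without WT vehicle library 5, and 0.85, without WT vehicle library 1. The SD among WT vehicle libraries, 1.16, was above the 0.229 that counting alone gives, with 49 to 186 reads per library.

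The ratio of Lgr4 to Lgr6 levels summarised the 2 receptors within each library. It averaged 10.1 ± 5.14 in KO agonist, 24.6 ± 3.67 in KO vehicle, 13.7 ± 5.90 in WT agonist and 35.5 ± 17.4 in WT vehicle cells. It ran between 7.29 and 20.5 in KO agonist, 20.1 and 29.1 in KO vehicle, 6.50 and 23.3 in WT agonist and 14.0 and 59.9 in WT vehicle cells. The mean ratio was thus lower with agonist in both genotypes, with overlap in both. Lgr4 itself averaged 71.6 ± 4.57 in KO agonist, 66.8 ± 3.58 in KO vehicle, 44.0 ± 7.88 in WT agonist and 62.1 ± 2.56 in WT vehicle cells. The genes nearest to Lgr6 were Sorcs2, Anxa8, Ak1, Sparc and Fgf5, at root mean square differences of 0.300 to 0.375. Sorcs2 averaged 33.5 ± 6.18 scaled units in KO agonist, 19.2 ± 2.34 in KO vehicle, 15.6 ± 4.00 in WT agonist and 10.6 ± 3.04 in WT vehicle cells. Sparc, a matrix protein, averaged 28.3 ± 4.52 in KO agonist, 15.6 ± 1.39 in KO vehicle, 21.5 ± 7.35 in WT agonist and 15.1 ± 7.32 in WT vehicle cells.

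Promoter sequences, from 250 bases before to 50 after the gene start, were taken from RefSeq (build GRCm38.p6), which matched 7 of the 8 listed genes, all but Sox9, with 10 entries in all. Those of Lgr4 (chr2:109917397-109917696, plus strand) and Lgr6 (chr1:135105227-135105526, minus strand) are shown. Mean Lgr4 was lowest in WT agonist cells and mean Lgr6 highest in KO agonist cells. The mean of Lgr6 was higher with agonist in both genotypes. Capitals mark a serum response factor CArG box at -146 to -137 in Lgr4 and a SOX core ACAAT at -62 to -58 in Lgr6.
Lgr4: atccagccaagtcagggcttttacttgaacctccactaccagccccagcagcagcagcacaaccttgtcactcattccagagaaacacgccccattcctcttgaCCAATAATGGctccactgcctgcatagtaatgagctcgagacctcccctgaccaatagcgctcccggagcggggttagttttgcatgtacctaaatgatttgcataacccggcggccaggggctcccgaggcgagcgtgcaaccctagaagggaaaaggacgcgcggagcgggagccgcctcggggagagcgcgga
Lgr6: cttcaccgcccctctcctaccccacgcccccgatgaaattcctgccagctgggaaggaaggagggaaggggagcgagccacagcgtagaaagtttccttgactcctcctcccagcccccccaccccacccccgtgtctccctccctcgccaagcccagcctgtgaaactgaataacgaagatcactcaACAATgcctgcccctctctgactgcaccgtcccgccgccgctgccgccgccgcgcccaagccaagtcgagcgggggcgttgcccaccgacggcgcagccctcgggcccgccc

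Of 32851 promoters of this length, 1.63% held the CArG box and 31.0% the SOX core, on either strand. The TCF/LEF core CTTTGA, held by 16.0% of promoters, was in none of the 10 entries of the listed genes, nor were the AP-1 motif TGANTCA (7.81%) and the CRE motif TGACGTCA (1.79%). The SOX core was also in 1 entry each of Rnf43 (at -3 to 2) and Tcf7l2 (at -244 to -240 and -102 to -98). TATAAA, held by 13.6% of promoters, was in 1 entry each of Tcf7l2 (at -242 to -237) and Ctnnb1 (at -120 to -115). Both strands were searched. A match describes letters only, and the motifs were chosen with the values known.

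Rnf43, the membrane ubiquitin ligase that R-spondins counteract (row on chromosome 11), was near the detection limit, with 6 to 37 reads per library. Its lowest, median and highest levels were 0.430, 0.668 and 1.03 scaled units in KO agonist cells and 0.348, 0.697 and 1.13 in KO vehicle cells. They were 0.316, 0.467 and 0.779 in WT agonist cells and 0.894, 1.14 and 1.33 in WT vehicle cells. The WT agonist libraries lay below the WT vehicle libraries without overlap, as 37.5% of all rows did in one direction or the other. In a fit without the filter (12224 rows), the log2 fold change with agonist was -0.05 ± 0.15 in KO cells and -0.72 ± 0.15 in WT cells, and the difference, WT minus KO, was -0.67 ± 0.22. The SD in WT vehicle cells, 0.169, was no larger than the 0.210 that counting alone would give. In the other groups it was above counting, at 0.195 against 0.170 in KO agonist and 0.288 against 0.166 in KO vehicle cells. In WT agonist cells it was 0.184 against 0.153. Znrf3, the partner ligase and the only other gene of its list in the table, averaged 15.9 ± 0.968 scaled units in KO agonist, 16.6 ± 1.10 in KO vehicle, 13.0 ± 1.08 in WT agonist and 14.6 ± 1.05 in WT vehicle cells. It fell by 0.16 ± 0.06 on the log2 scale with agonist in WT cells (adjusted p = 0.0233). That call was lost with quantile scaling (adjusted p = 0.178) and without any 1 of 4 libraries.

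Ctnnb1, the gene of beta-catenin (row on chromosome 9), was the most abundant of the genes. Its lowest, median and highest levels were 634, 642 and 678 scaled units in KO agonist cells and 474, 623 and 643 in KO vehicle cells. They were 666, 701 and 752 in WT agonist cells and 624, 643 and 677 in WT vehicle cells. WT agonist libraries lay higher than WT vehicle ones with overlap, and the low KO vehicle value was that of library 6. The log2 fold change with agonist was 0.12 ± 0.05 in KO cells and 0.13 ± 0.05 in WT cells, with a difference, WT minus KO, of 0.01 ± 0.08. Without KO vehicle library 6 the KO value was 0.049 and the difference 0.079. The direction in WT cells turned under other scalings, at -0.11 with every library set to the same total and -0.24 with quantile scaling. The same-total setting itself moved the median of all rows to -0.24 in that contrast.

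Tcf7l2, a TCF-family partner of beta-catenin (row on chromosome 19), overlapped between all groups with all 24 libraries, and had 1 library far from the others. Its lowest, median and highest levels were 21.3, 22.9 and 26.8 scaled units in KO agonist cells and 17.9, 18.9 and 40.7 in KO vehicle cells. They were 20.3, 24.0 and 28.3 in WT agonist cells and 19.0, 21.2 and 25.9 in WT vehicle cells. The 40.7 was KO vehicle library 6, and the next highest of that group was 19.7. Without library 6, KO vehicle levels ran between 17.9 and 19.7, below every KO agonist and every WT agonist level. They still overlapped WT vehicle levels. The share of all rows without overlap was not counted without that library. The log2 fold change with agonist was 0.13 ± 0.13 in KO cells, and 0.31 without that library. In WT cells it was 0.14 ± 0.13, and -0.09 with every library set to the same total. The 5 genes nearest to Tcf7l2, among them Sap130 and R3hdm1, had their highest KO vehicle level in library 6. R3hdm1 was at 107.3 there, against 57.7 at most in the other 5. These genes were picked for nearness over all libraries, library 6 included, so the shared high level is no separate evidence.

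**Figure D3:**
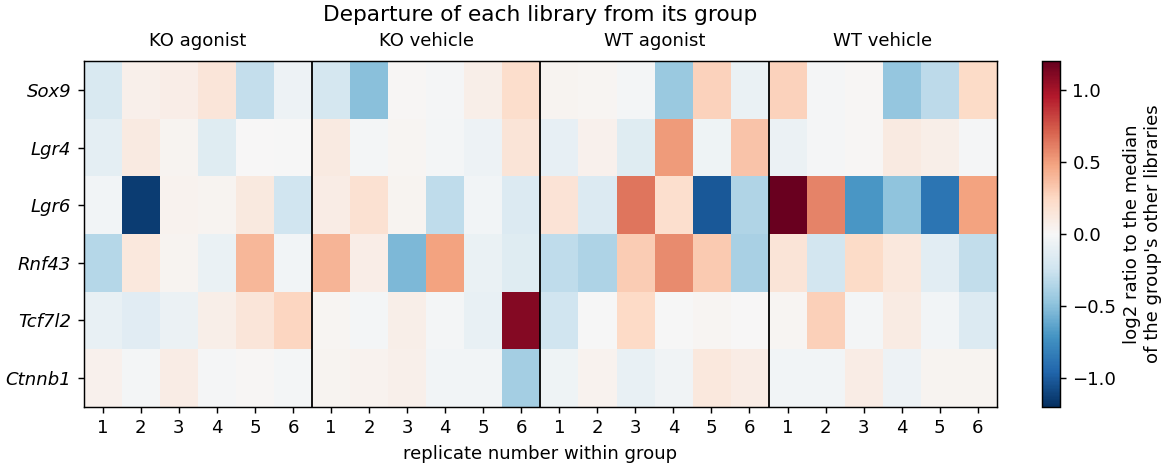
Each library's departure from the median of the other libraries of its group, as a log2 ratio of (scaled units + 0.5), for the 6 genes (rows) and 24 libraries (columns). KO vehicle library 6 stands out for Tcf7l2 (high, 40.7) and Ctnnb1 (low, 474), and KO agonist library 2 for Lgr6 (low, 3.81).

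KO against WT cells under vehicle is a contrast in which the genes were tested. Its libraries also served the agonist effects known when the genes were listed, so the test is not independent of that choice. Of the 5, 0 were called, against 47.8% of all rows. KO minus WT on the log2 scale was 0.11 ± 0.12 for Sox9 (limma, adjusted p = 0.499), 0.10 ± 0.08 for Lgr4 (0.268), 0.37 ± 0.24 for Lgr6 (0.214), -0.02 ± 0.13 for Tcf7l2 (0.911) and -0.11 ± 0.05 for Ctnnb1 (0.104). The libraries of the 2 groups overlapped for all 6 genes, where 27.3% of rows had no overlap. Without KO vehicle library 6, Tcf7l2 was at 18.8 ± 0.624 scaled units in KO vehicle cells (SD, n = 5), and its log2 value of -0.20 had a limma adjusted p of 0.0203. Without the same library the Ctnnb1 value was -0.042. Rnf43, in the fit without the filter, was at -0.39 ± 0.15 (limma, adjusted p = 0.0362), with few reads behind it.

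**Figure D4:**
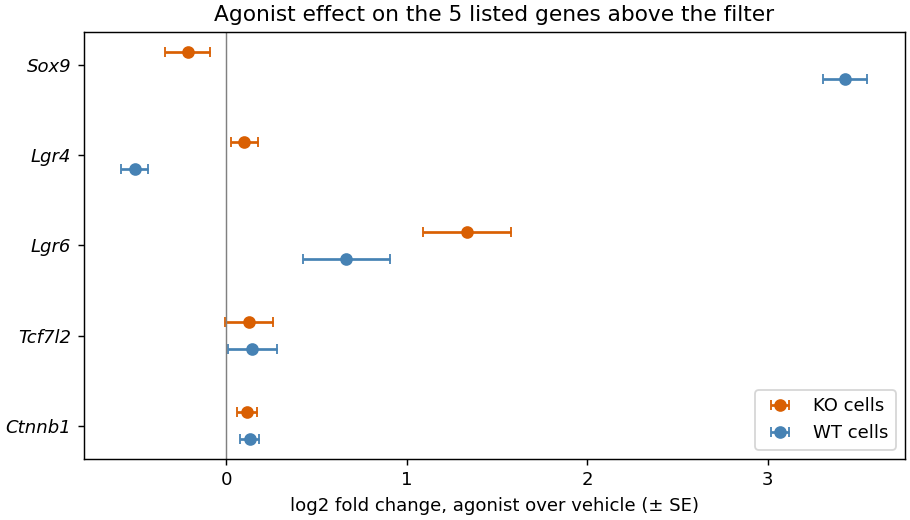
Log2 fold change with agonist (agonist over vehicle, ± SE) of the 5 genes above the filter in KO cells (orange, upper) and WT cells (blue, lower). Sox9 was at -0.21 in KO cells and 3.43 in WT cells, Lgr4 at 0.10 in KO cells and -0.51 in WT cells, and Lgr6 at 1.33 in KO cells and 0.67 in WT cells.

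The other Wnt pathway genes were counted from a list of 94, of which 49 were in the table and 48 passed the filter. With agonist in WT cells, 13 were called higher and 14 lower, where 28.6% of rows were called in each direction, and the median log2 fold change was -0.01. In KO cells 4 were called higher and 1 lower, where 4.66% and 4.64% of rows were. In the difference of the effects, WT minus KO, 9 were positive and 13 negative, where 21.5% and 19.6% of rows were. With agonist, KO minus WT, 12 were higher and 16 lower, where 32.0% and 32.1% of rows were. With every library set to the same total, the WT counts became 6 higher and 29 lower, beside 1432 and 6948 over all rows. The difference of the effects then had 5 positive and 32 negative, beside 1129 and 6417 over all rows, or 6 and 18 with quantile scaling. The KO minus WT counts with agonist became 32 higher and 7 lower. In that contrast the same-total setting moved the median of all rows to 0.285, against 0.006 in the main analysis.

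Of 8 ligands and secretion genes, 3 rose and 2 fell with agonist in WT cells, where 57.2% of all rows were called, 28.6% in each direction. With the same total the counts were 1 and 3. Wnt4 averaged 48.2 ± 3.27 scaled units in WT agonist and 80.8 ± 11.0 in WT vehicle cells (log2 -0.73, adjusted p = 2.7e-08). Of the 3 that rose, Wnt7b and Wnt10a lost the call with the same total (adjusted p = 0.492 and 0.302), and Wnt7a (log2 0.56) kept it. Of 8 receptors, Fzd5 rose (0.66) and 3 fell, among them Fzd4 (-1.14) and Fzd7, at 3.01 ± 0.495 in WT agonist and 7.16 ± 0.719 in WT vehicle cells (-1.13). With the same total 1 receptor of 9 rose and 6 fell. Of 3 inhibitors, Kremen2, a Dickkopf co-receptor, and Sfrp5, a secreted Wnt antagonist, fell by 1.29 and 0.90. Both were low: Kremen2 averaged 1.73 scaled units in WT agonist and 4.83 in WT vehicle cells, and Sfrp5 2.53 and 5.09. The effect on each of Wnt4, Fzd4, Fzd5, Fzd7 and Kremen2 differed between genotypes, with limma adjusted p from 4.32e-07 to 0.00063. In that difference 41.1% of all rows were called. Wnt4 averaged 50.3 ± 6.16 scaled units in KO agonist and 58.0 ± 4.33 in KO vehicle cells, and Kremen2 2.36 ± 0.638 and 2.75 ± 0.372. Both were thus already lower in KO than WT cells under vehicle. In KO cells Wnt6 (0.69), Wnt10a (0.49), Ptk7 (0.30) and Tnks (0.22) rose and Fzd4 (-0.37) fell; Fzd4 lost the call without any 1 of 8 libraries, and Ptk7 and Wnt10a each without any 1 of 5.

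Of 15 cytosolic genes that pass on or limit the signal to Ctnnb1, 6 rose and 3 fell in WT cells, where 28.6% of rows did each way. With the same total 3 rose and 8 fell: the values of Tnks (0.01), Tnks2 (0.02) and Csnk1d (-0.03) were then no longer called. Csnk1e, a kinase that phosphorylates Dishevelled, averaged 251 ± 24.2 scaled units in WT agonist and 98.5 ± 6.15 in WT vehicle cells (log2 1.34, adjusted p = 5.62e-16). Csnk1a1, the kinase that primes beta-catenin for degradation, rose by 0.51. Of 13 nuclear genes, 3 rose and 3 fell against that background, or 1 and 8 with the same total, with the co-repressor Tle3 at 1.04. Of 6 adherens junction partners, 4 rose and 1 fell, or 3 and 2 with the same total and 2 and 2 with quantile scaling, with Cdh1, the gene of E-cadherin, at 0.89. Of 6 planar cell polarity genes, 1 rose and 2 fell, or 1 and 4 with the same total.

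**Figure D5:**
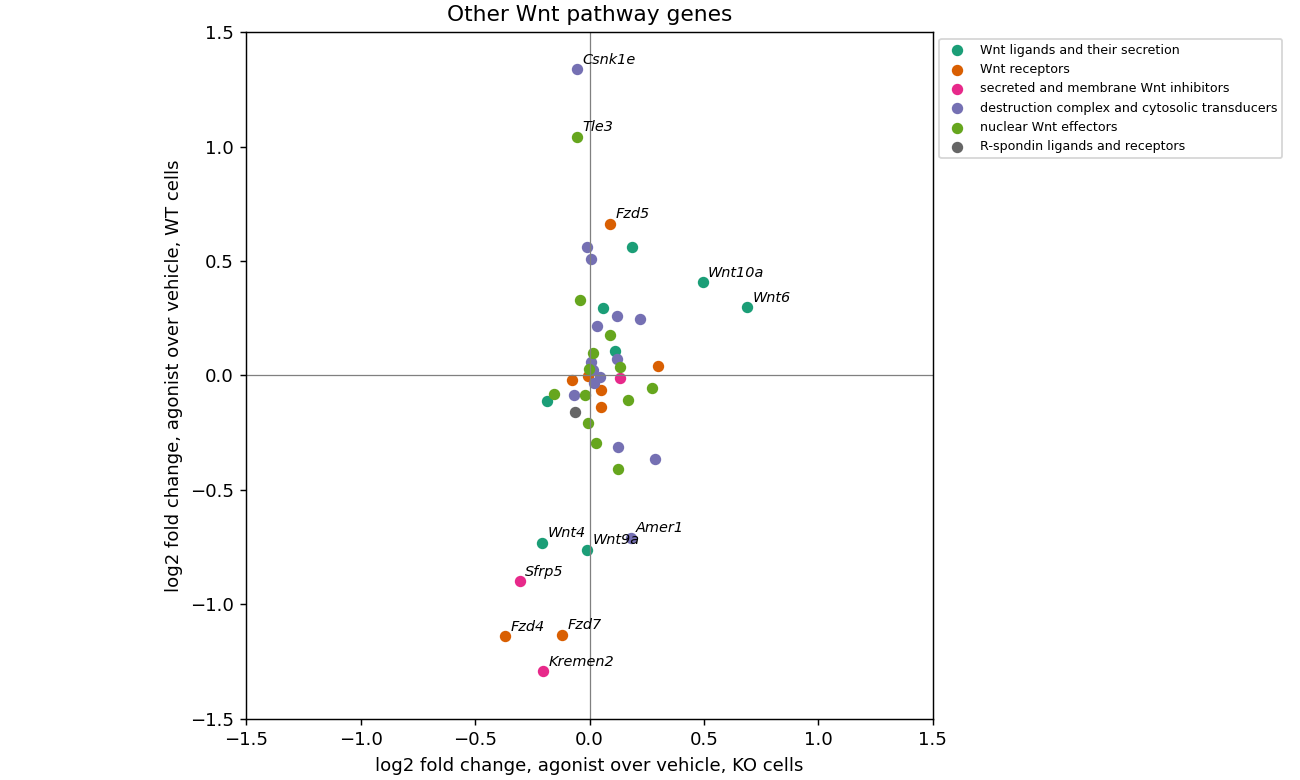
Log2 fold change with agonist of the other Wnt pathway genes in KO cells (horizontal) and WT cells (vertical), coloured by class. Points spread along the vertical axis, from -1.29 for Kremen2 to 1.34 for Csnk1e, and genes beyond 0.6 in WT cells or 0.35 in KO cells are named.

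Of 8 genes listed as Wnt targets, which other signals also drive, 3 rose and 3 fell with agonist in WT cells, where 28.6% of rows did each way, and with the same total 3 and 4. Myc averaged 448 ± 38.5 scaled units in WT agonist and 170 ± 15.6 in WT vehicle cells (log2 1.40), Cd44 was at 0.91 and Ccnd1 at 0.78. Of those that fell, Ephb3 was at -0.44. In the difference, WT minus KO, 2 of the 8 were positive and 2 negative, where 21.5% and 19.6% of rows were. Ccnd1 was not among these (0.28, limma adjusted p = 0.39), with a value of 0.50 in KO cells. Of 12 tubule injury and repair genes, a list chosen for the known link of Sox9 to repair, 10 rose and 0 fell in WT cells, where 28.6% of rows rose. The list median was 1.23, against -0.01 over all rows, and with the same total the counts were 9 and 2. They included Hbegf, a ligand of the EGF receptor (log2 3.04). In KO cells 1 of the 12 rose, where 4.66% of rows did. The list was chosen with earlier results of these data known, so its counts and median are descriptions without a test.

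Under vehicle, KO minus WT, 4 of the 48 other Wnt pathway genes were called higher and 19 lower, where 23.9% of rows were called in each direction. The list median was -0.13, against 0.00 over all rows. The lower ones included Tcf7, a TCF factor at 0.626 ± 0.094 scaled units in KO vehicle and 2.03 ± 0.606 in WT vehicle cells (log2 -1.13, adjusted p = 1.04e-05), with Sfrp5 (-1.06), Kremen2 (-0.71) and Wnt4 (-0.47). Fzd4 (0.78) and Znrf3 (0.18) were among the higher ones. The counts were 5 and 17 with the same total and 5 and 19 with quantile scaling. Of the 10 principal cell markers, 4 were higher and 2 lower in the same contrast, and their part in it was not tested.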

How the data were processed

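RNA was sequenced from poly(A) libraries, per the labels' protocols. The authors deposited 1 table of signal values per library and gene length. STAR 2.7.8a, DESeq2, DESeq and GRCm39 are named in the submitters' processing notes, without their roles. Multiplied by length and by a library factor of 0.754 to 1.46, at least 99.8% of a library's deposited signal values were whole within the rounding (0.05 times the factor, at least 0.05), so they were read as counts divided by a factor. They were multiplied by 92.1, for a mean column total of 1000000. The totals averaged 934771 in KO agonist, 957870 in KO vehicle, 1141980 in WT agonist and 965380 in WT vehicle cells. Setting all totals equal therefore lowers WT agonist levels relative to the other groups. Rows with a mean of at least 1 were fitted on log2(scaled units + 0.5) in limma 3.58.1 (R 4.3.3; trend and robust settings, 20 residual degrees of freedom), with 1 term per group and two-sided Benjamini-Hochberg adjustment over 11557 rows. The fold understates changes of low genes. Calls are at an adjusted p below 0.05. The fit was tested on simulated data.

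The listed genes, gene lists and tests were chosen with earlier results of these data known. Beside the listed genes, up to 4 called genes per list and contrast by adjusted p, and the 5 nearest profiles, could be named; longer lists are summarised. Strand use in counting is not given in the sources used here, so reads of overlapping antisense genes cannot be told apart. Libraries were not paired by replicate number in the main fit, and the labels do not say whether equal numbers share a culture. Groups come from sample titles. Settings varied were the pseudocount, filter, scaling, groups fitted, moderation, replicate block and libraries. Voom on recovered reads was added after seeing the data.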

Additional observations from a re-analysis of the deposited data

Results flagged for a closer look

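In a group of 6, a library was set apart where its gap to the next value exceeded Dixon's critical share of the group's range. This occurred in 3 of 24 groups of values, and chance gives about 1 in 20. KO agonist library 2 was low for Lgr6, at 3.81 scaled units. KO vehicle library 6 was high for Tcf7l2, at 40.7, and low for Ctnnb1, at 473.8.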

How the results depend on the processing

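The call count of the agonist effect in KO cells was the least stable. It was 1075, 2623 without KO vehicle library 6 and KO agonist library 2, and 284 (without KO agonist library 1) to 1851 (without KO agonist library 2) with 1 library left out. The Wnt pathway genes called there were 5, then 11, and 2 to 8. With all column totals made equal, the difference of the effects had 7546 calls (4746 in the main analysis) and 37 pathway genes (22), and Ctnnb1 in WT cells turned to -0.11 (-0.24 with quantile scaling). The counts of the other contrasts stayed within 1.5 times of their main values under every setting run. Sox9 in WT cells ranged between 3.34 and 3.51 with 1 library left out, and Lgr4 between -0.58 and -0.46. The Lgr6 call in WT cells was lost without WT agonist library 3 or WT vehicle library 3 or 5, and with the same total. The Ctnnb1 call in WT cells was lost without most single WT libraries.

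Same-numbered libraries did not consistently deviate together (10 of 36 pairs with a correlation over 0.1, range -0.315 to 0.488). A replicate block gave 6593 calls in WT cells, 1122 in KO cells, 4732 for the difference, 5513 under vehicle and 7404 with agonist. The planned edgeR alternative was not run, because values per gene length could not be declared as counts. Few reads limit Rnf43 and, less so, Lgr6. Levels were also low for Kremen2, Sfrp5 and Tcf7.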
